A study of Homo sapiens with 39 samples.

Results

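WM115 is an established human melanoma cell line, and clone 1.3 is a cell clone of it from a study of deletions in enhancers of SOX10. The 3 RNA-seq libraries whose titles name clone 1.3 were set against the 4 libraries of unedited WM115 cells (WT), which makes 7 of the 39 libraries in the series. The libraries were chosen by these titles. The labels conflict on what the clone lacks: its number follows those of clones 1.1 and 1.2, which carry the genotype R1_del, whereas its own genotype is given as R4_del. The deleted region of clone 1.3 is therefore not stated here. The labels list no treatment, dose or time for either group. The other WM115 libraries, which entered the estimate of spread and the direct comparisons below, came from clones 1.1 (R1_del, 5 libraries), 1.2 (R1_del, 3 libraries), 4.1 (R4_del, 3 libraries) and 4.2 (R4_del, 3 libraries). The clone 1.3 libraries all repeat 1 clone, so an effect of the deletion and a trait of that clone cannot be told apart. The labels do not say whether the libraries of a group came from separate cultures. The p-values measure the spread between libraries of a group, pooled over the 6 WM115 groups and not taken from clone 1.3 and WT alone. That spread may be technical.

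SOX10 is a transcription factor of the neural crest that keeps melanocytes and many melanomas in their lineage. With MITF it drives the genes of pigment production. Melanoma cells can also sit in less differentiated states in which pigment genes are low and other programmes are high. Many melanoma lines carry MHC class II molecules, which display peptides to CD4+ T cells and whose transcription depends on the coactivator CIITA.

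Abundance is given in TPM, a length-corrected share of the RNA of a library, and differences are on the log2(TPM + 1) scale, which understates the change of genes at low level. Read depth is unknown, because no counts accompany these values. Between 14878 and 15382 genes reached 1 TPM in the WT libraries and between 15126 and 15528 in the clone. Melanocytic marker genes were present in all 7 libraries, though not as the highest marker sum in each. The 16 melanocytic marker genes summed to 942 to 2901 TPM in WT and to 828, 560 and 1635 TPM in clone libraries 1, 2 and 3, with GPR143, KIT and OCA2 under 1 TPM throughout. SOX10 alone gave 328 of the 560 TPM in library 2. The 8 Schwann and glial markers summed to 979 to 1160 TPM in WT and to 1264, 723 and 760 TPM in the clone. The 9 fibroblast markers summed to 491 to 723 TPM in WT and to 406, 638 and 492 TPM in the clone. Of 8 leukocyte markers, 7 were under 1 TPM in all 7 libraries, all but CD68. Mitochondrially encoded genes took 13.7% to 15.6% of TPM in WT and 11%, 8.31% and 19.4% in clone libraries 1, 2 and 3. Ribosomal protein genes took 12.0% to 13.6% in WT and 17.6%, 18% and 11.5% in the clone. The part of these shares in the results was not tested beyond the fits with each share as a covariate.

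The 3 clone libraries did not resemble each other equally, and library 2 resembled another clone. Across genes, library 2 correlated at 0.968 with library 1 and at 0.939 with library 3 of its own clone, but at 0.979 and 0.981 with libraries 1 and 2 of clone 1.2. Library 3 correlated at 0.953 to 0.976 with the 4 WT libraries and at 0.963 with library 1. Relative to both other clone libraries by at least 1 on the log2 scale, 72 genes were above and 77 below in library 1, 546 above and 82 below in library 2, and 470 above and 385 below in library 3.

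**Figure D1:**
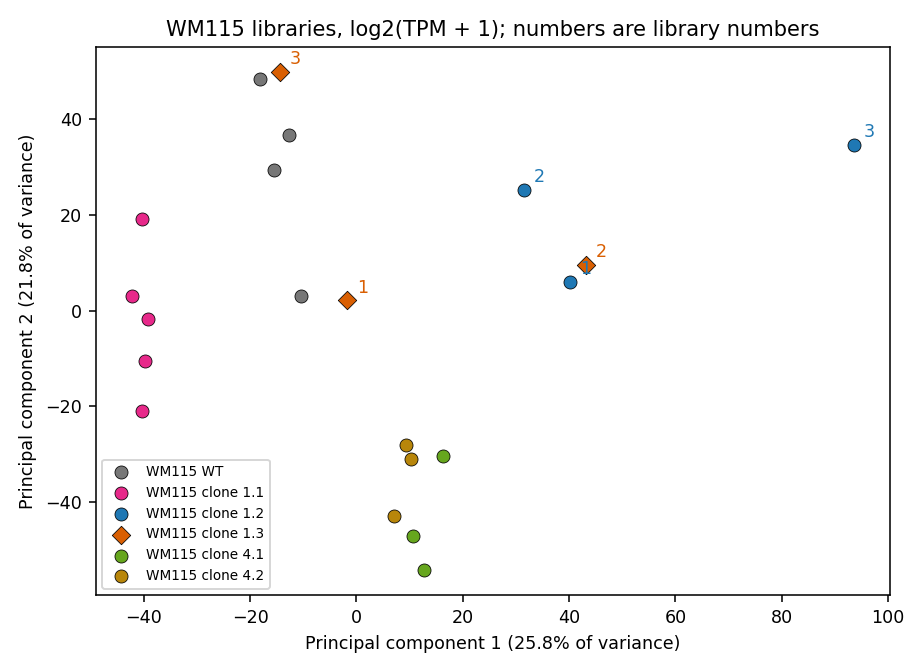
Principal components 1 and 2 of the 21 WM115 libraries (log2(TPM + 1) of the genes tested), 1 point per library, with the library number beside the points of clones 1.2 and 1.3. Clone 1.3 library 2 lies beside clone 1.2 library 1, library 3 lies beside WT library 4, and library 1 lies nearest WT library 3; the 2 components hold 25.8% and 21.8% of the variance.

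The 10 genes in which library 2 lay furthest above the other 2 clone 1.3 libraries were also above the WT range in clone 1.2. The exception was ANGPTL4 in clone 1.2 library 1, at 7.27 TPM against 2.98 to 16.2 TPM in WT. BEX1, a small neuronal adaptor protein gene, had 0.387, 97.4 and 0.074 TPM in clone 1.3 libraries 1, 2 and 3, at most 0.150 TPM in WT, and 262, 106 and 542 TPM in clone 1.2 libraries 1, 2 and 3. The gastric mucin MUC6 had 0.038, 54.4 and 0 TPM in clone 1.3 and 3.36, 43.3 and 41.7 TPM in clone 1.2. The translation elongation factor EEF1A2 had 9.12, 277 and 1.40 TPM in clone 1.3 and 83.8, 282 and 163 TPM in clone 1.2. Libraries 1 and 3 sat near the WT range for each of these genes, and library 2 sat within the range of clone 1.2 or just outside it. The glutathione transferase MGST1, the secreted growth factor CLEC11A, the lipase inhibitors G0S2 and ANGPTL4, the noncoding FER1L4, the cytokine IL32 and the embryonic globin HBE1 completed the 10 genes with library 2 furthest above the other 2.

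**Figure D2:**
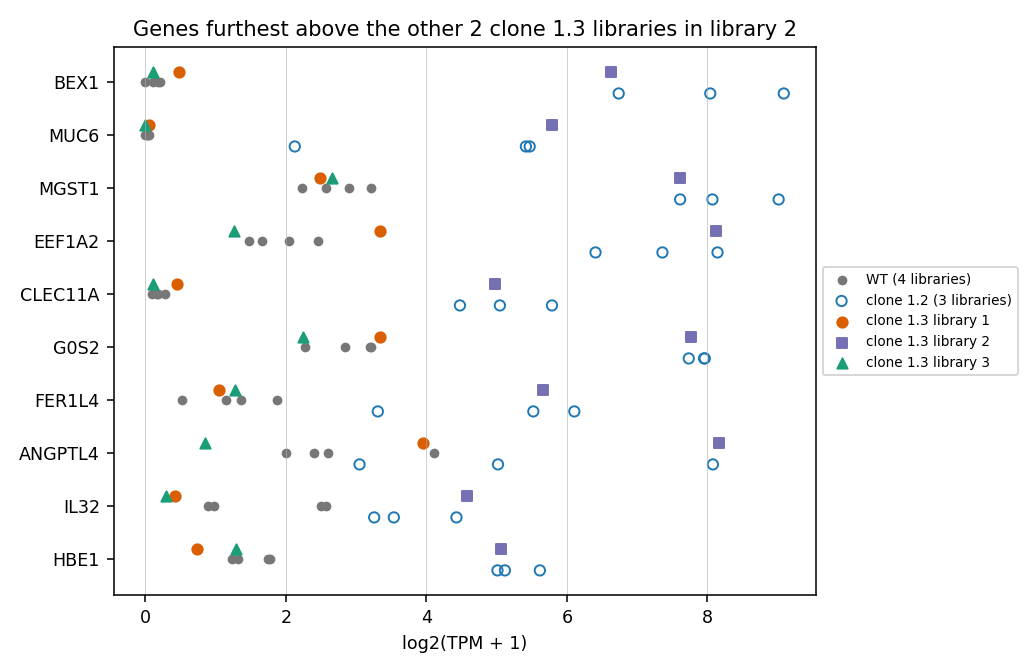
Level (log2(TPM + 1), x axis) of the 10 genes in which clone 1.3 library 2 lay furthest above clone 1.3 libraries 1 and 3, 1 row per gene; grey points are WT libraries, open blue circles clone 1.2 libraries and filled coloured symbols clone 1.3 libraries. In each row the library 2 symbol lies away from libraries 1 and 3 and among or near the clone 1.2 circles, as for BEX1 at 97.4 TPM against 0.387 and 0.074 TPM.

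A wider count gave the same picture. Of 49 genes tested that had at least 2 TPM in clone 1.2 libraries 2 and 3 and under 0.2 TPM in clone 1.3 libraries 1 and 3, 46 reached 1 TPM in clone 1.3 library 2, against 1 to 5 in the WT libraries. Their median level in library 2 was 63.6% of the mean of those clone 1.2 libraries. SOX9, a transcription factor of cartilage and neural crest, was among them, at 0.075, 4.92 and 0 TPM in clone 1.3, listed at 0 in all 4 WT libraries, and at 18.1, 5.27 and 14.1 TPM in clone 1.2. Clone 1.2 library 1 reached 1 TPM in 45 of the 49. The same condition the other way round gave 9 genes that do not mark clone 1.3, since 2 to 5 of them reached 1 TPM in the WT libraries and 3 to 6 in the libraries of clones 4.1 and 4.2, beside 8 in clone 1.3 library 2 and 6 in clone 1.2 library 1. Among these 9, AP006216.2 was listed at 0 in all WM115 libraries outside clones 1.2 and 1.3, and library 2 had 9.28 TPM of it. In a further set of 68 genes, with a mean of at least 5 TPM and higher in clone 1.2 library 3 than in the mean of clone 1.3 libraries 1 and 3 by 3 or more on the log2 scale, library 2 lay at a median of 39.9% of the way from the clone 1.3 mean to clone 1.2 library 3. Clone 1.2 libraries 1 and 2 lay at 39.7% and 41.3%, close to clone 1.3 library 2. For the 216 genes lower by as much the median was 43.3% in library 2 and 50.5% and 53.0% in clone 1.2 libraries 1 and 2. Why library 2 carries these genes was not tested. Values of single libraries are given for the main genes below, with the value without library 2 where a call named there was lost without it.

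SOX10 itself did not pass the test in clone 1.3. It had 553, 540, 485 and 449 TPM in the WT libraries and 465, 328 and 525 TPM in clone libraries 1, 2 and 3 (SOX10, ENSG00000100146, chr22:37970686-37987422, minus strand, GRCh38). Libraries 1 and 3 lay inside the WT range and library 2 below it. The WT mean was 507 ± 48.3 TPM (SD, n = 4) and the clone mean 439 ± 101 TPM (SD, n = 3). On the log2 scale the clone was at -0.23 relative to WT (SE 0.70, limma adjusted p 0.932). This SE pools the spread within all 6 WM115 groups. With clone 1.2 library 3 left out of the fit the limma adjusted p was 0.565. The difference was -0.03 without library 2 and turned positive, to 0.18, with the ribosomal protein share as a covariate. Of 50 other genes tested within 1 Mb of SOX10, 1 was called, the small GTPase gene RAC2, beside 0.618% of all genes tested, and their median log2 difference was -0.04. RAC2 had 0.032 to 0.707 TPM in WT and 3.14, 1.66 and 0.771 TPM in the clone (log2 1.14, limma adjusted p 0.0298). Its call was lost without clone library 1 or 2 or WT library 1, 2 or 3, and without library 2 the limma adjusted p was 0.113.

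Across the transcriptome, 105 of 16997 genes tested were called in clone 1.3 against WT (0.618% of the genes tested), at a limma adjusted p under 0.05 with a log2 difference of at least 1 in size. Of these, 72 were higher (0.424%) and 33 lower (0.194%). In 103 of the 105 the clone and WT libraries did not overlap, as was so for 11.5% of all genes tested. The calls were made on these same libraries, so such separation follows largely from the selection. By type 79 were protein-coding and 22 long noncoding RNA genes. Most rises began from near silence: 45 of the 72 had a WT mean under 1 TPM, 6 were listed at 0 in every WT library, and 19 reached a clone mean of 10 TPM. The share of all genes tested with such a WT mean is not given here. With a filter at a mean of at least 5 TPM, 25 genes were called, 18 of them higher. Without library 2, 85 genes were called, 50 higher and 35 lower, and 67 of them were among the 105. Without library 3 the count was 321, with 93 shared. When each of the 7 libraries was left out in turn, 54 of the 105, 39 higher and 15 lower, stayed called every time; 3 others were under the filter on low values in some of these fits.

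**Figure D3:**
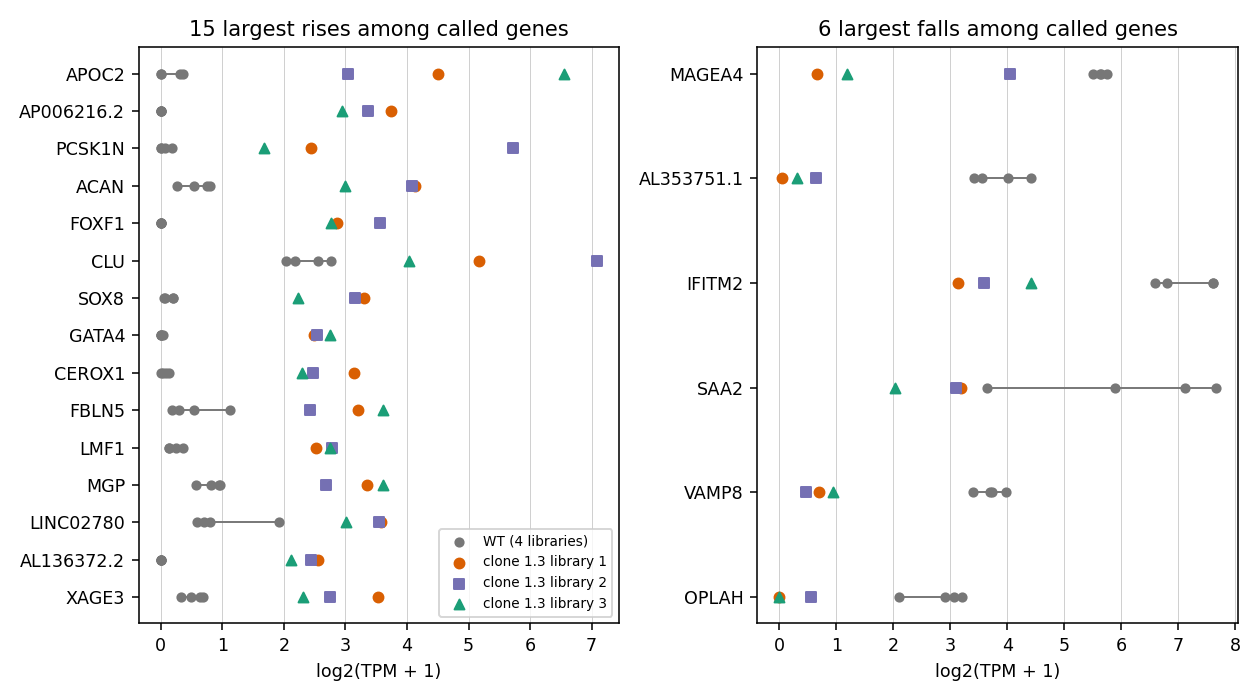
Level (log2(TPM + 1), x axis) of the 15 called genes with the largest rise and the 6 with the largest fall in clone 1.3 against WT, 1 row per gene; grey points joined by a line are the 4 WT libraries and coloured symbols the 3 clone libraries. No clone symbol enters the WT range; library 2 stands high for PCSK1N (51.7 TPM) and CLU (136 TPM) and for MAGEA4 (15.5 TPM), and library 3 for APOC2 (92.6 TPM).

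The genes with the largest rises included FOXF1, GATA4 and SOX8, which encode transcription factors. FOXF1, a forkhead factor of mesenchyme (chr16:86510527-86515418), was listed at 0 in all 4 WT libraries and had 6.31, 10.8 and 5.80 TPM in clone libraries 1, 2 and 3, a log2 difference of 3.06 (SE 0.19, limma adjusted p 1.14e-08). GATA4, a zinc-finger factor of heart and endoderm (chr8:11676959-11760002), was at 0, 0, 0 and 0.022 TPM in WT and at 4.59, 4.84 and 5.75 TPM in the clone, a log2 difference of 2.59 (SE 0.17, limma adjusted p 1.75e-08). SOX8, the factor most akin to SOX10 and SOX9, had at most 0.150 TPM in WT and 8.83, 7.92 and 3.70 TPM in the clone, a log2 difference of 2.76 (SE 0.47, limma adjusted p 0.00363). All 3 clone libraries carried each of these factors, and all 3 stayed called when any 1 library was left out. TBX3, a T-box repressor already present in WT at 16.5 to 24.2 TPM, rose to 42.8, 132 and 35.9 TPM. Its call (log2 1.45, limma adjusted p 0.0237) was lost without clone library 2 (0.88, adjusted p 0.0733), WT library 3 (1.44, adjusted p 0.0562) or WT library 4 (1.35, adjusted p 0.0727), and clone 1.2 had 83.3 to 119 TPM.

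SOX8 lay in a group of neighbouring calls. LMF1, which matures lipases in the endoplasmic reticulum, the noncoding CEROX1 and SOX8 adjoin on chromosome 16 between 853634 and 986979, LMF1 and CEROX1 on the minus strand and SOX8 on the plus strand. LMF1 had 0.097 to 0.278 TPM in WT and 4.75, 5.86 and 5.73 TPM in the clone (log2 2.47, SE 0.26, limma adjusted p 2.17e-05). CEROX1 had 0 to 0.103 TPM and then 7.80, 4.55 and 3.93 TPM (log2 2.57, SE 0.42, limma adjusted p 0.00272). These were 3 of the 4 genes tested in the interval. Such groups joined called genes less than 500 kb apart and ended at called genes, so these shares are high by construction. The annotated spans of LMF1 and CEROX1 overlap on 1 strand, so the division of reads between them is uncertain. A further run on chromosome 19 held the zinc-finger genes ZNF100 and ZNF43 and the noncoding AC010615.2, again 3 of the 4 genes tested there. ZNF43 was at 0 to 0.148 TPM in WT and at 1.88, 1.98 and 2.03 TPM in the clone. CLU and SCARA3, both near 27.6 Mb on chromosome 8, were a called pair with no other gene tested between them.

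ACAN, ITGA10, FBLN5 and MGP, which encode matrix proteins and a matrix receptor chain, also rose. ACAN, the core protein of the cartilage proteoglycan aggrecan, had 0.749, 0.679, 0.458 and 0.195 TPM in WT and 16.6, 15.9 and 7.0 TPM in the clone, a log2 difference of 3.15 (SE 0.51, limma adjusted p 0.00215). ITGA10, the collagen-binding integrin chain of cartilage, had 0.131 to 0.446 TPM and then 5.89, 2.12 and 7.46 TPM (log2 2.21, SE 0.29, limma adjusted p 0.000299). The elastic fibre protein FBLN5 went from 0.131 to 1.19 TPM in WT to 8.21, 4.37 and 11.2 TPM (log2 2.54, SE 0.40, limma adjusted p 0.00181). MGP, an inhibitor of calcification, went from 0.493 to 0.950 TPM to 9.22, 5.43 and 11.2 TPM (log2 2.39, SE 0.41, limma adjusted p 0.00373). In ITGA10, FBLN5 and MGP library 2 was the lowest of the clone libraries, and all 3 remained above every WT library. ACAN and ITGA10 were on fixed lists, and FBLN5 and MGP were named for the size of their rise alone. Of those lists, 1 of 25 matrix glycoproteins and proteoglycans tested and 1 of 22 integrins and laminins tested was called, both higher, beside 0.424% of all genes tested. The list medians were 0.35 and 0.25 beside -0.03 over all genes tested, and in library 3 alone they were -0.04 and -0.09. None of 19 collagen chains tested was called.

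Other rises covered secreted and membrane proteins. APOC2, the apolipoprotein that activates lipoprotein lipase, had 0, 0, 0.245 and 0.290 TPM in WT and 21.7, 7.26 and 92.6 TPM in the clone. This was the largest log2 difference of all called genes, 4.53 (SE 0.62, limma adjusted p 0.000419), although the clone libraries differed widely. CLU, a secreted chaperone, went from 3.09, 4.91, 5.81 and 3.52 TPM to 34.8, 136 and 15.3 TPM (log2 3.05, SE 0.58, limma adjusted p 0.0115), and without library 2 its log2 difference was 2.21 (limma adjusted p 0.0848). PCSK1N, an inhibitor of a prohormone convertase, had 4.42, 51.7 and 2.21 TPM in the clone and at most 0.131 TPM in WT. CLU and PCSK1N were highest in library 2 and stood at 74.4 to 372 TPM and 23.9 to 53.3 TPM in clone 1.2.

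The tetraspanin CD81, a membrane organiser and entry receptor for hepatitis C virus, rose from an already moderate level. It had 41.2, 40.2, 41.2 and 46.5 TPM in WT and 163, 198 and 129 TPM in the clone, a log2 difference of 1.91 (SE 0.12, limma adjusted p 1.14e-08). SFRP1, a secreted Wnt antagonist, went from 149, 159, 196 and 101 TPM to 397, 506 and 230 TPM (log2 1.28, SE 0.30, limma adjusted p 0.0417). It was the only call among 24 Wnt pathway genes tested, beside 0.618% of all genes tested. The median of that list was 0.09, with 13 genes above 0 and 11 below. The SFRP1 call was lost without clone library 1 or 2 or WT library 1, 2 or 4, at limma adjusted p-values of 0.0877 to 0.267. The cancer-testis gene XAGE3 (log2 2.32, limma adjusted p 0.0177) was likewise lost without clone library 1 or 2 or WT library 1 or 4, at adjusted p-values of 0.0518 to 0.125.

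Among the falls, IFITM2 and VAMP8 were low in all 3 clone libraries. IFITM2, an interferon-inducible membrane protein that blocks virus entry (chr11:307631-315272), had 195, 110, 95.7 and 194 TPM in WT and 7.73, 11.1 and 20.3 TPM in the clone, a log2 difference of -3.44 (SE 0.32, limma adjusted p 4.2e-06). Every clone library was below every WT library. Its annotated span overlaps that of its near copy IFITM1, and reads of IFITM1, IFITM2 and IFITM3 can be hard to assign. IFITM3 had 982 to 1510 TPM in WT and 1182, 1355 and 1373 TPM in the clone (log2 0.14, limma adjusted p 0.855), and IFITM1 had 14.7 to 50.8 TPM and 5.78, 18.2 and 15.3 TPM (log2 -1.08, limma adjusted p 0.381). None of 25 interferon-stimulated genes tested from a list without IFITM2 was called, beside 0.618% of all genes tested, with a median of -0.11. VAMP8, a vesicle fusion protein of endosomes and secretory granules, fell from 12.0, 12.2, 9.56 and 14.7 TPM to 0.627, 0.376 and 0.924 TPM (log2 -3.0, SE 0.19, limma adjusted p 1.14e-08).

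Cancer-testis antigen genes gave 3 falls among 17 tested and no call higher, beside 0.194% of all genes tested called lower. The median of the list was -0.08. MAGEA4 had 48.9, 44.4, 52.9 and 48.4 TPM in WT and 0.584, 15.5 and 1.27 TPM in the clone, a log2 difference of -3.67 (SE 0.52, limma adjusted p 0.000643). Library 2 alone kept a moderate level of MAGEA4, and clone 1.2 had 36.0, 14.9 and 61.3 TPM. MAGEA10, its neighbour on the X chromosome, had 41.1, 40.1, 40.7 and 38.3 TPM in WT and 8.54, 7.90 and 6.01 TPM in the clone (log2 -2.29, SE 0.15, limma adjusted p 1.71e-08), with no such excess in library 2. CTAG1B, the NY-ESO-1 antigen gene, went from 1.01, 2.63, 1.68 and 5.36 TPM to 0, 0.120 and 0.204 TPM (log2 -1.60, limma adjusted p 0.00197); it has a near-identical copy, so its reads are uncertain. MAGEC1, MAGEA6 and SSX1 lay below every WT library in all 3 clone libraries without being called, which makes 6 of the 17 with the called genes, beside 7.08% of all genes tested. XAGE1A and PRAME lay above every WT library (4.42% of all genes did). XAGE3, which rose, was not on the list.

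Metabolic, immune and neuronal genes made up most of the other named falls. OPLAH, the oxoprolinase of the glutathione cycle, had 8.23, 6.53, 3.31 and 7.33 TPM in WT and 0, 0.478 and 0 TPM in the clone (log2 -2.63, SE 0.24, limma adjusted p 3.24e-06). BATF, an AP-1 family factor of lymphocytes, fell from 2.65 to 7.96 TPM to 0.388, 0.279 and 1.44 TPM (log2 -2.03, limma adjusted p 0.00103). CSF2RA, the GM-CSF receptor chain, fell from 2.61 to 4.51 TPM to 0.130, 0.219 and 0.313 TPM (log2 -1.90, limma adjusted p 0.00143). The neural factor MYT1L (log2 -1.47), the inner ear protein COCH (-1.75), the endocytic protein AMPH (-1.46) and the noncoding AL353751.1 (-3.52) also fell, and all 4 stayed called when any 1 library was left out. Their clone libraries had at most 0.113 TPM of MYT1L, 0.546 TPM of COCH, 1.38 TPM of AMPH and 0.554 TPM of AL353751.1. LINC02732 (log2 -1.49, limma adjusted p 0.045) was lost without any of 6 libraries, at limma adjusted p-values of 0.0754 to 0.205; its level was 30.4 to 38.0 TPM in WT and 13.8, 10.1 and 11.4 TPM in the clone. WDR63 and AC093673.1, named because their groups overlapped, each lost the call without 5 of the 7 libraries, library 2 among them (log2 -1.11 and 0.89).

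Among acute-phase genes SAA2 and CSF3 fell, beside a wide spread in WT. SAA2, a serum amyloid A gene, had 201, 137, 58.6 and 11.5 TPM in WT and 8.13, 7.60 and 3.08 TPM in the clone (log2 -3.31, SE 0.74, limma adjusted p 0.0319). Its near copy SAA1 had 737, 539, 246 and 53.6 TPM and then 36.0, 23.7 and 21.1 TPM (log2 -3.31, limma adjusted p 0.0788). The groups did not overlap, but WT library 4 lay close to the clone for both genes. Of 25 acute-phase and NF-kB genes tested, SAA2 and CSF3 were called lower and none higher (0.194% of all genes tested were called lower). There were 21 below 0, as were 54.1% of all genes tested, with a median of -0.25. By library the medians were -0.48, 0.24 and -0.56, so library 2 lay above WT. Both calls were fragile. SAA2 was lost without any clone library or without WT library 1, 2 or 3 (log2 -3.51 to -2.78, limma adjusted p 0.0513 to 0.119). CSF3, at 1.90, 1.37, 1.19 and 0.235 TPM in WT and 0, 0.080 and 0 TPM in the clone, was lost without the same libraries (log2 -1.06 to -0.86). Reads of SAA1 and SAA2 may be shared.

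The MHC class II genes were lower in the clone as a group, yet none passed the test. Of 15 class II presentation genes tested, 15 had a log2 difference below 0 and 13 had every clone library below every WT library (7.08% of all genes tested did), with a median of -1.0. Against the 0.618% called over all genes, 0 of the 15 were called by limma; 7 had an unadjusted p under 0.05 (13% of all genes did), and the lowest adjusted p was 0.0816, for HLA-DOB. Under the alternatives the count called was 0 to 6, the highest with clone 1.2 library 3 left out of the pooled fit, and 5 with array weights. CIITA, the coactivator on which the class II genes depend, had 54.5, 49.2, 70.8 and 46.0 TPM in WT and 23, 16.9 and 33.1 TPM in the clone (log2 -1.18, SE 0.40, limma adjusted p 0.204). HLA-DQA1, the alpha chain of DQ, had 735, 592, 448 and 614 TPM and then 200, 121 and 144 TPM (log2 -1.95, SE 1.05, limma adjusted p 0.448). CD74, the invariant chain that escorts class II dimers, had 6764, 6244, 5134 and 5820 TPM and then 3926, 2636 and 3908 TPM (log2 -0.80, SE 0.38, limma adjusted p 0.389). Libraries 1 and 3, and not library 2 alone, were below WT in all 3 of these genes. The protease CTSS and the regulator RFX5 were the members that overlapped, through library 3, at 25 and 94.4 TPM. Among 16 MHC class I presentation genes tested none was called, with a median of -0.17 and only HLA-E and HLA-F below every WT library in all clone libraries.

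**Figure D4:**
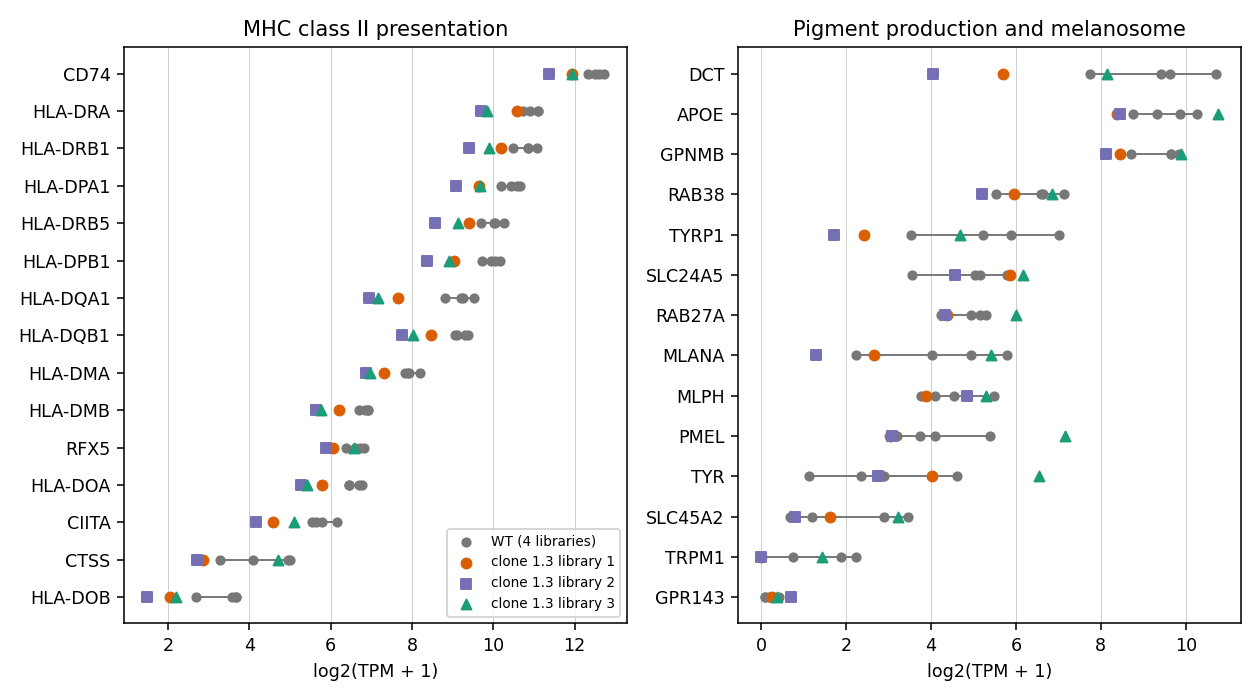
Level (log2(TPM + 1), x axis) of 15 MHC class II presentation genes (left) and 14 pigment production and melanosome genes (right), ordered by WT mean, 1 row per gene; grey points joined by a line are the 4 WT libraries and coloured symbols the 3 clone libraries. On the left 13 genes have all clone symbols below the WT points, and CTSS and RFX5 do not; on the right no gene separates the groups, and library 3 lies apart from libraries 1 and 2 in rows such as PMEL (141.9 against 7.16 and 7.49 TPM).

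Class II promoters share a short upstream module whose most proximal element, the Y box, holds the letters CCAAT and binds the factor NF-Y. Because these genes lay low together, their promoters were read from RefSeq (GRCh38.p14), from 250 bases before to 50 after the gene start. The table matched 12 of the 15 genes, leaving CIITA, HLA-DRA and CTSS unmatched. These genes have 15 promoters in the table, 3 of RFX5 and 2 of HLA-DPA1 among them. CCAAT on either strand was found in 11 of the 15, against 34.6% of all 35116 promoters, and at 30 to 120 bases before the start in 10 of the 15, against 18.3% of all promoters. HLA-DPA1 was without a match. A match is a description of letters and not evidence of binding. Because class II promoters are known for this element, a higher share than over all promoters was fixed in advance. It says nothing about the level of these genes in the clone. The promoters of the 3 matched members furthest below 0 and of CD74, chosen after the values were seen, are shown 5′ to 3′ along the gene's strand, with CCAAT or its reverse complement ATTGG in capitals.
HLA-DQA1: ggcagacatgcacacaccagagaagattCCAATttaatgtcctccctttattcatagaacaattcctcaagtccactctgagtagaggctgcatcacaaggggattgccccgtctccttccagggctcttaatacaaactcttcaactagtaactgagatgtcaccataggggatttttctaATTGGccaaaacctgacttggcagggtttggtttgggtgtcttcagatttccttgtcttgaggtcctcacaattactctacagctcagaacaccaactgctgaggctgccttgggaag
HLA-DOB: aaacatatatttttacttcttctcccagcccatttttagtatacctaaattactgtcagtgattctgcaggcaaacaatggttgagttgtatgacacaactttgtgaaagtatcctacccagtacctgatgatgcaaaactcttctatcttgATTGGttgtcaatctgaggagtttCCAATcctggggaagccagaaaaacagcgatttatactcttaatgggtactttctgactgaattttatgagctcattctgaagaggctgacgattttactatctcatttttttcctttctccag
HLA-DPB1: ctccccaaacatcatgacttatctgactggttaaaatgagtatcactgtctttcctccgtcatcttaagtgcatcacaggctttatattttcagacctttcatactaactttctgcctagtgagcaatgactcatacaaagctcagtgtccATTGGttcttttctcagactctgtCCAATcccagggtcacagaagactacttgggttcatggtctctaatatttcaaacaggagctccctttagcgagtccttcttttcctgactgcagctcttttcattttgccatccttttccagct
CD74: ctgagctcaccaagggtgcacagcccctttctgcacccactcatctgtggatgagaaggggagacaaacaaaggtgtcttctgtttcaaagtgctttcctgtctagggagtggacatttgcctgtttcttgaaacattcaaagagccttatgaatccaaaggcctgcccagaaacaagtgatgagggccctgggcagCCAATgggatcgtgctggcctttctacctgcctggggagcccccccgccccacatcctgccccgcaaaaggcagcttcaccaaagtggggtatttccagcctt
HLA-DQA1 (chr6:32637156-32637455) and HLA-DPB1 (chr6:33075740-33076039) are on the plus strand, and HLA-DOB (chr6:32816953-32817252) and CD74 (chr5:150412861-150413160) on the minus strand. The DPB1 window and the DOB window each hold a pair of matches under 100 bases before the start, DQA1 holds 1 there and 1 further up, and CD74 holds 1. The log2 differences of these 4 genes were -1.95 for HLA-DQA1, -1.48 for HLA-DOB, -1.20 for HLA-DPB1 and -0.80 for CD74. For the 105 called genes the table matched 36 of the 72 higher and 13 of the 33 lower. The letters ACAATG, a core of SOX sites, occurred on either strand in 6 and 2 of these, against 10.8% of all promoters. TGANTCA (AP-1) occurred in 4 and 3, CACGTG in 3 and 1 and TCATGTG in 0 and 0, against 7.71%, 7.26% and 2.92%. The counts are of genes with a match in any of their promoters and the shares are of single promoters, so the units differ.

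Pigment genes showed no difference between the groups that held in all 3 clone libraries. Of 14 pigment production and melanosome genes tested none was called, beside 0.618% of all genes tested. None separated the groups, beside 11.5% of all genes tested, and the list median was -0.26. At such a share of calls, lists as short as those given here are likely to hold none. The lack of calls is therefore not a result about these genes. DCT, the dopachrome tautomerase of melanin synthesis, had 785, 681, 215 and 1685 TPM in WT and 50.7, 15.7 and 281 TPM in the clone (log2 -3.41, SE 1.21, limma adjusted p 0.225). Libraries 1 and 2 lay far below WT, and library 3 lay inside the WT range. TYRP1, the related melanosomal enzyme, had 57.6, 36.4, 10.6 and 127 TPM and then 4.34, 2.31 and 24.7 TPM (log2 -2.47, limma adjusted p 0.262). TYR, the rate-limiting enzyme, had 6.48, 4.11, 1.17 and 23.5 TPM and then 15.2, 5.71 and 91.6 TPM, with library 3 above every WT library. MITF, the master regulator of these genes, had 149, 139, 60.5 and 164 TPM in WT and 85.0, 42.0 and 202 TPM in the clone (log2 -0.41, limma adjusted p 0.827). Of 14 other melanocyte regulators and lineage genes tested, 12 were below 0, as were 54.1% of all genes tested, and none was called. Neural crest and glial genes (17 tested) and genes of an undifferentiated melanoma state (18 tested) gave no call either, with medians of 0.14 and 0.39. The medians of the undifferentiated list by library were 0.51, 0.94 and -0.34, and those of the pigment list -0.80, -1.16 and 0.96.

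Some signalling genes differed with library 3. ID1 and ID3, inhibitors of differentiation and targets of BMP signalling, had 38.1 and 52.2 TPM in library 1 and 51.9 and 53.1 TPM in library 2, but 2.24 and 3.71 TPM in library 3. WT libraries had 1.99 to 7.48 TPM of ID1 and 3.65 to 6.97 TPM of ID3. Neither gene was called with all libraries (limma adjusted p 0.265 and 0.158). Without library 3 both were, at log2 differences of 3.01 and 3.26 (limma adjusted p 0.000853 and 0.00109). The ligand BMP7 had 29.2, 29.2, 25.8 and 13.8 TPM in WT and 78.2, 57.8 and 29.7 TPM in the clone (log2 1.09, limma adjusted p 0.143), and without library 3 it was called at 1.48 (limma adjusted p 0.018). Of 17 ID and BMP signalling genes tested none was called with all libraries, beside 0.618% of all genes tested. TGFB1, a growth factor of the same superfamily, had 26.8, 24.6, 22.9 and 25.9 TPM in WT and 36.5, 51.0 and 44.3 TPM in the clone (log2 0.77, SE 0.15, limma adjusted p 0.0154), past the p threshold but under the minimum difference, as were the axon guidance ligand NTN4 (0.93), the protocadherin PCDHGB2 (0.97) and the peroxidase PRDX1 (-0.74). Of 30 cell cycle genes tested and of 25 hypoxia and glycolysis genes tested none was called, beside the same share of all genes. The list medians were -0.09 and 0.33. By library these were 0.21, -0.12 and -0.45 for the cell cycle and 0.29, 0.86 and -0.22 for hypoxia, so neither list had 1 direction in all 3.

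Chromosome-wide medians were also taken over genes at a mean of at least 5 TPM. On chromosome 8 the median log2 difference was 0.21 over 376 genes, of which 83.0% were above 0. The single libraries agreed closely there, at 0.20, 0.18 and 0.19 for libraries 1, 2 and 3, while the WT libraries lay between -0.04 and 0.04. Chromosome 13 had a median of -0.29 over 195 genes, and chromosome 16 one of -0.23 over 538 genes. Other WM115 clones departed on these chromosomes too. Chromosome 8 medians were 0.11 to 0.30 in clone 1.2, 0.12 to 0.20 in clone 4.1, 0.04 to 0.24 in clone 4.2 and 0.46 to 0.65 in clone 1.1. Chromosome 13 medians were -0.32 to -0.20 in clone 1.1, -0.58 to -0.18 in clone 1.2, -0.06 to 0.07 in clone 4.1 and -0.72 to -0.59 in clone 4.2. Chromosome 16 medians were -0.15 to -0.01 in clone 1.1, -0.46 to -0.17 in clone 1.2, -0.50 to -0.46 in clone 4.1 and -0.37 to -0.21 in clone 4.2. On chromosome 22, which holds SOX10, library 2 lay at -0.27 and libraries 1 and 3 at -0.07 and 0.01, while clone 1.2 libraries lay at -0.31, -0.35 and -1.0. No test was made of these medians. Chromosome 8 held 9 of the calls, 7 of them higher, in 578 genes tested (1.56%), beside 0.618% of all genes tested. CLU, SCARA3, GATA4 and SFRP1 were among them. The X chromosome held 11 in 575 (1.91%) and chromosome 4 held 8 in 553 (1.45%), at medians of -0.04 and -0.002. Chromosome 16, with its median of -0.23, held 6 in 817 (0.734%), all of them higher.

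**Figure D5:**
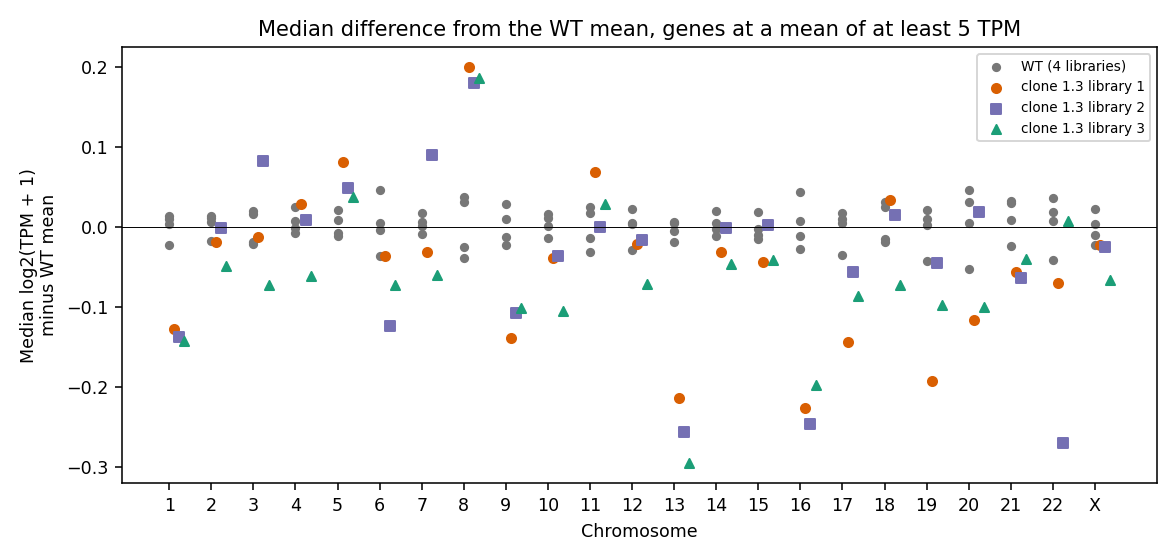
Median log2(TPM + 1) minus the WT mean per chromosome (y axis), over genes at a mean of at least 5 TPM; grey points are the 4 WT libraries and coloured symbols the 3 clone libraries. All 3 clone libraries lie at 0.18 to 0.20 on chromosome 8 and below the WT points on chromosomes 13 and 16, while on chromosome 22 only library 2 (-0.27) lies far from WT.

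Clone 1.3 was last compared directly with the other WM115 clones, contrasts that share the clone 1.3 libraries with each other and with the comparison with WT. Against clone 1.1, 919 genes were called (5.41%), 755 of them higher in clone 1.3 (4.44%). Against clone 4.1 the count was 862 (5.07%), 490 higher (2.88%) and 372 lower (2.19%), and against clone 4.2 it was 431 (2.54%), 311 higher (1.83%) and 120 lower (0.706%). Quantile normalization moved the share of higher calls from 82.2% to 67.7% against clone 1.1, from 56.8% to 43.4% against clone 4.1 and from 72.2% to 56.2% against clone 4.2. Against clone 1.2 the count was 263 (1.55%), 76 higher (0.447%), but this count did not hold: it was 1 without clone 1.3 library 1 or 3, 1021 without clone 1.3 library 2, 720 and 732 without clone 1.2 library 1 and 2, and 0 without clone 1.2 library 3.

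Of the 105 genes called against WT, 57 were also called in the same direction against clone 1.1, 16 against clone 1.2, 39 against clone 4.1 and 37 against clone 4.2. There were 8 called the same way against all 4 clones: AP006216.2, FBLN5, ITGA10, the cholinesterase BCHE, VWA5A, the factor TFCP2L1, SEMA6D and, lower, MAGEA4. This list rests in part on the contrast with clone 1.2, whose calls fall to 0 or 1 as given above. SEMA6D had 0.227 to 0.515 TPM in WT and 1.90, 1.13 and 4.69 TPM in clone 1.3. It fell under the filter on low values when any clone 1.3 library was left out, so it was tested only through this clone. TFCP2L1 had 0.743 to 1.94 TPM in WT and 4.71, 3.93 and 4.12 TPM in clone 1.3 (log2 1.27, limma adjusted p 0.0499), and it lost its call against WT when any of 6 libraries was left out, with a limma adjusted p of 0.148 without library 2. MAGEA4 means were 138, 37.4, 140 and 110 TPM in clones 1.1, 1.2, 4.1 and 4.2, against 5.77 TPM in clone 1.3. FBLN5 means were 0.145 to 1.86 TPM in the other clones and 7.92 TPM in clone 1.3. AP006216.2, a noncoding gene at chr11:116813204-116814003, had 12.4, 9.28 and 6.71 TPM in clone 1.3 and 8.39 TPM in clone 1.2 library 1, and was listed at 0 in the other 17 WM115 libraries. IFITM2 was called lower against clones 1.1, 4.1 and 4.2, whose means were 146, 95.3 and 60.2 TPM, and did not pass against clone 1.2 (29 TPM, log2 -1.10, limma adjusted p 0.0893). Several levels were close to those of other clones: SOX8 had means of 5.31, 4.23, 15.1 and 4.95 TPM in clones 1.1, 1.2, 4.1 and 4.2, and VAMP8 means were 0.473 to 3.65 TPM against 12.1 TPM in WT. The class II genes took a different order. Against clone 1.1, 13 of 15 were lower in clone 1.3, and 7 were called in either direction, beside 5.41% of all genes tested. Against clone 4.1, 14 of 15 were lower in clone 1.3 and 0 were called, beside 5.07% of all genes tested. Against clone 4.2, 5 of 15 were lower and against clone 1.2, 0 of 15. In either direction 1 and 0 were called, beside 2.54% and 1.55% of all genes tested.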

How the data were processed

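Poly-A-captured RNA of 21 WM115 libraries was used, 3 of clone 1.3 and 4 of WT among them. The deposited gene table holds TPM values made by the authors. DRAGEN and GRCh38 are named in the submitters' processing notes, and their settings are not given in the sources used here. TPM keeps no read count, so precision rests on the number of libraries. Of 60871 lines, 200 repeated an Ensembl gene and were dropped, and 58453 of 60671 genes had a GENCODE 29 position. A further 6 value columns matched no sample and were not used. Groups came from the sample titles.

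The scale of all tests was log2(TPM + 1). A single model was fitted by limma (version 3.58.1, under R 4.3.3), in which each of the 6 WM115 groups had 1 coefficient, the variance followed a trend on mean expression, and tests were two-sided. Genes needed 1 TPM in at least 3 libraries, and p-values were adjusted by Benjamini-Hochberg over 16997 genes. A call needed an adjusted p under 0.05 and a difference of at least 1. The fit was tested on simulated data. Named were SOX10, the 15 called genes furthest up and the 15 furthest down with groups that do not overlap, and called members of 38 gene lists; other named genes were chosen after their values were seen. Some genes that this rule selects are not reported here. The members and lists were chosen with earlier results of these data known. Alternatives changed the pseudocount, filter, scaling, weights, libraries, covariates and block.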

Additional observations from a re-analysis of the deposited data

Results flagged for a closer look

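Of the genes followed, 135 were examined for a WT library far from the other 3, and 15 had one, where chance flags about 1 in 20 such groups. That rate does not hold where the other 3 WT libraries are listed at 0, as for GATA4, FBXL7, AC010615.2, ZNF43 and KLHL13. Any trace value is flagged there. Clone groups of 3 were not examined. WT library 4 stood high for GATA4 at 0.022 TPM, LINC02780 at 2.80 TPM, BCHE at 1.01 TPM, CSMD1 at 0.106 TPM, AC010615.2 at 0.309 TPM and AL133467.2 at 2.11 TPM, and low for BMP7 at 13.8 TPM. WT library 3 stood apart for FBXL7 at 0.026 TPM, FOXD3 at 22.2 TPM, HLA-DOB at 5.48 TPM and PCDHGB2 at 1.23 TPM. WT library 1 stood apart for DLK2 at 4.32 TPM, HSPB8 at 0.851 TPM and KLHL13 at 0.143 TPM, and WT library 2 for ZNF43 at 0.148 TPM.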

How the results depend on the processing

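The count of 105 genes called against WT was 25 with a mean of at least 5 TPM, 337 with array weights, 61 with only the 2 groups fitted, 180 with no minimum difference and 73 to 321 with 1 library left out. Against clone 1.1 (919), it was 1456 with a pseudocount of 0.1, 501 with a mean of at least 5 TPM, 3196 with no minimum difference and 795 to 1045 with 1 library left out. Against clone 1.2 (263), it was 0 by limma with a pseudocount of 0.1 (3500 genes at an unadjusted p under 0.05), 0 with a mean of at least 5 TPM (2433), 0 with only the 2 groups (1317), 115 with no filter, 104 and 1 with the mitochondrial and ribosomal protein shares as covariates, and 0 to 1021 with 1 library left out. Against clone 4.1 (862), it was 460 with a mean of at least 5 TPM, 2435 with no minimum difference and 543 to 1098 with 1 library left out, the lowest without clone 4.1 library 2. Against clone 4.2 (431), it was 227 with a mean of at least 5 TPM, 267 with no filter, 104 with only the 2 groups, 221 with the ribosomal protein share as a covariate, 987 with no minimum difference and 195 to 601 with 1 library left out. The cause of these shifts was not tested.

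Library numbers did not pair the samples: deviations of same-numbered clone and WT libraries correlated at -0.17, -0.08 and -0.45 across genes. With the replicate number as a block the counts were 0 against WT (932 genes at an unadjusted p under 0.05 by limma), 156, 0 (1132), 724 and 118 against clones 1.1, 1.2, 4.1 and 4.2. The SOX10 difference was -0.28 with the block, turned to 0.18 with the ribosomal protein share as a covariate, and was -0.37 to -0.03 with 1 library left out. Over 134 other genes followed, 2336 of 2868 pairs of gene and alternative kept direction and side of the threshold, 493 lost the call, 39 gained one and 0 reversed.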
